A study of Mus musculus with 6 samples.

Results

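The 9 genes described here encode the giant and scaffold proteins of the sarcomere, the contractile unit of striated muscle. They are Ttn and Neb, Mybpc1 and Mybpc2, Actn2 and Actn3, Myom1 and Myom2, and Ldb3. Their accessible sites were taken as all intervals that overlapped the gene body, as placed on GRCm38.p6, extended by 20 kb on both sides, which gave 215 of the 323483 intervals of the experiment. Of these, 144 lay over the 9 gene bodies and 71 in the flanks. At the edge of the rule, an interval of 240 bp lay 19862 bp beyond the gene body of Myom2 and was counted, and an interval of 610 bp lay 20277 bp beyond it and was not.

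The intervals came from ATAC-seq, in which a transposase cuts accessible DNA, of mouse embryonic fibroblasts that were heterozygous for M2-rtTA and for a tetracycline-controlled Myf6 transgene. All 3 groups, with 2 libraries each, were kept for 24 h in a medium with 10 ng/mL bFGF. In the Myf6 with F/R/C group, doxycycline (2 µg/mL) switched the transgene on and 5 µM forskolin, 5 µM RepSox and 3 µM CHIR99021 were added. The Myf6 group had the same doxycycline alone, and the medium group had neither doxycycline nor compounds. The table holds positions of intervals joined over the experiment and no value for a library or a group, so the groups could not be compared, the depth is unknown, and every value below is a single value without replicate error. A joined interval marks a peak of unknown group and carries no signal level. Of 21887 protein-coding genes, 74.7% had an interval within 1 kb of a gene end. Beside that share, all 12 fibroblast markers had one, as had 3 of 6 macrophage and blood cell, 3 of 5 endothelial, 4 of 5 epithelial and 3 of 6 cardiac muscle markers. The planned measure for these markers was an interval within 1 kb of the start, held by 71.6% of genes with a known start. Among markers with a known start, 6 of 6 fibroblast, 1 of 2 macrophage and blood cell and 2 of 3 endothelial markers had one. So had 1 of 3 epithelial and 2 of 5 cardiac muscle markers.

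In the sarcomere, actin filaments are anchored in the Z-disc and myosin filaments are held in register by the M-band. Titin runs as an elastic strand from the Z-disc to the M-band, nebulin lies along the actin filament, alpha-actinins crosslink actin in the Z-disc, and myomesins and myosin-binding protein C bind the myosin filament. Genes of this kind are switched on as myoblasts differentiate. Myogenic basic helix-loop-helix factors such as Myf6 bind E-boxes, and the MEF2 site and the CArG box are bound by MEF2 factors and by serum response factor.

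The start sites came from RefSeq promoter windows, which run from 250 bases before to 50 bases after a start and were at hand for 6 of the 9 genes. The windows are shown because each of these starts lay under an interval. Sequences are RefSeq on GRCm38.p6, 5′ to 3′ in the direction of the gene. Capitals mark E-boxes (CANNTG), MEF2 sites and CArG boxes.
Ttn (chr2:76982498-76982797, minus strand): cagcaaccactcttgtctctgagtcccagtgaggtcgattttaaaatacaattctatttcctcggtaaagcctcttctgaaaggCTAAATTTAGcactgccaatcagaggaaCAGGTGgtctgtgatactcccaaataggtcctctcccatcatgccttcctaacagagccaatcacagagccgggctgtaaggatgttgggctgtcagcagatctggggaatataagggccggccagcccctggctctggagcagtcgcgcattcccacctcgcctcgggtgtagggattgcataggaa
Mybpc1 (chr10:88605103-88605402, minus strand): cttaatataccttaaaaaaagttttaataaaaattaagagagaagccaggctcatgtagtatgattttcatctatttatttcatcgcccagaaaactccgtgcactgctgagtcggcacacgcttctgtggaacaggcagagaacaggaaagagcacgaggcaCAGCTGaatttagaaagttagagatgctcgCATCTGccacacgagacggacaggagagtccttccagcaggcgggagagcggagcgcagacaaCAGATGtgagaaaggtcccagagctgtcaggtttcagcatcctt
Mybpc2 (chr7:44524620-44524919, minus strand): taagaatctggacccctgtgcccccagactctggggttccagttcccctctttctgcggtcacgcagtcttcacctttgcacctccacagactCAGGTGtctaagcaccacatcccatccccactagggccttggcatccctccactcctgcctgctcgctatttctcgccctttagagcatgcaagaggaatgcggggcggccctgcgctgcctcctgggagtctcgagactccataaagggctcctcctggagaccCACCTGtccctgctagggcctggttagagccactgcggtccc
Actn2 (chr13:12340683-12340982, minus strand): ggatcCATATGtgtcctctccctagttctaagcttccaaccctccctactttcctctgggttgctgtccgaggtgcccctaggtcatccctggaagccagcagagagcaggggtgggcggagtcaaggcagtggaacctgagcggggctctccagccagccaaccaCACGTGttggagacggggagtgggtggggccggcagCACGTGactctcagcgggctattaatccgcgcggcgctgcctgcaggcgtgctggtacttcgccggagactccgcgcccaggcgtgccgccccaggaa
Myom1 (chr17:71019307-71019606, plus strand): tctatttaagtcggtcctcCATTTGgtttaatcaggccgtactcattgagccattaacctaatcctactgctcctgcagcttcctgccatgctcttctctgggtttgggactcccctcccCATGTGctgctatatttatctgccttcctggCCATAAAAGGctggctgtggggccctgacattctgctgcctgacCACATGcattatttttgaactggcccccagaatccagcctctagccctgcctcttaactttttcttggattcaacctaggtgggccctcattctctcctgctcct
Ldb3 (chr14:34588632-34588931, minus strand): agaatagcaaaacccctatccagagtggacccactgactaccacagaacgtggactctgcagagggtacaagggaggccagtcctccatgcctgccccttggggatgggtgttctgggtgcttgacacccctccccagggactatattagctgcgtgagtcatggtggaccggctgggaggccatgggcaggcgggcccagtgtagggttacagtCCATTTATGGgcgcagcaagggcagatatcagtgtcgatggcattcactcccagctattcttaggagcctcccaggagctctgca

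Accessible sequence covered all 300 bases of the windows of Ttn, Actn2, Myom1 and Ldb3. It covered 227 bases of the Mybpc1 window and 193 of the Mybpc2 window, in both cases including the start. Ldb3 had another start 74 bp downstream, whose window shared 226 bases with the one shown and was also covered in full. The 8 motifs were searched on both strands. CANNTG reads the same on both strands and includes CAGCTG. E-boxes stood in the windows of 5 of the 6 genes, with 12 matches in all, and in 69.0% of the 21263 windows of protein-coding genes. Actn2 had the E-box CACGTG at 84 and at 48 bases before its start, a form whose share over all windows was not computed. Mybpc1 had CAGCTG at 87 bases before its start, a form found in 15.6% of all windows. Myom1 had 3 E-boxes, and a CArG box that began 99 bases before the start. Ldb3 had no E-box and had a CArG box that began 35 bases before the upper start. CArG boxes were found in 1.52% of all windows. Ttn had an E-box and, 166 bases before its start, a MEF2 site, found in 2.74% of all windows. MCAT elements (GGAATG) stood in the windows of Ttn and Mybpc2 (13.6% of all windows), AP-1 sites (TGANTCA) in that of Ldb3 (6.99%), and GC boxes (GGGCGG) in those of Actn2 and Mybpc2 (46.2%). TATAAA was in none of the 6 (12.6% of all windows). Of the 21 matches, with CAGCTG counted among the E-boxes, 20 lay under an interval, and the exception was the E-box of Mybpc2 that begins 157 bases before the start. Most bases of these windows lay under an interval, so that count says little about the motifs. Matches describe letters and do not show binding.

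All 6 genes with a known start had an interval within 1 kb of it, where 71.6% of the 17492 protein-coding genes with a known start had one. In all 6 an interval also covered the start itself, for which the share over all genes was not computed. These intervals were narrower than those at most starts. The widest within 1 kb of the start measured 907 bp at Actn2, 816 bp at Ttn, 757 bp at Ldb3, 537 bp at Myom1, 414 bp at Mybpc1 and 371 bp at Mybpc2. The median over the 6 genes was 647 bp, against 1268 bp over all protein-coding genes with a start interval (quartiles 946 and 1622 bp), so all 6 lay below the lower quartile. At Myom1 and Ldb3 this depends on the start used, which lies more than 1 kb inside the annotated gene. Within 1 kb of the lower end of Myom1, where the annotated gene begins, the widest interval measured 1380 bp and covered the start of Myl12a. Within 1 kb of the upper end of Ldb3, where that gene begins, there was none. An interval of at least 600 bp was found at 3 of the 6 starts and at 64.1% of all starts. No test applies to these widths, which are the extents of joined peaks. Narrow intervals at the ends of sarcomere genes were known from these data when the genes were chosen. The widths are therefore a description and not an independent result.

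At Mybpc2 the interval that covered the start measured 216 bp, from 44524597 to 44524812, and the wider interval of 371 bp lay further upstream, from 44525078 to 44525448. Mybpc1 showed a like pair, with 414 bp over the start (88604916 to 88605329) and 350 bp upstream of it (88606035 to 88606384). At Ttn the interval over the start (76982449 to 76983264) was followed in the gene by 351 bp at 76981727 to 76982077 and 347 bp at 76980314 to 76980660. A single interval lay over the start of Actn2, from 12340221 to 12341127, with 257 bp more at 12341499 to 12341755.

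The promoter windows of the 6 genes also differed in their number of CpG dinucleotides, a base step that promoters used in most cells often hold in large number. Myom1 had 2 CpG in its window, Ldb3 6, Ttn 8, Mybpc2 9, Mybpc1 11 and Actn2 19, against a median of 13 over all windows (quartiles 4 and 24). Among the 8618 genes whose window held 2 to 19 CpG, 65.9% had an interval within 1 kb of the start, with a median width of 1076.5 bp. Beside genes with exactly as many CpG, Myom1 (537 bp) stood at the level of the median of 526 bp. Ldb3 (757 bp, median 838 bp) and Ttn (816 bp, median 951 bp) were somewhat below it. Actn2 (907 bp, median 1292 bp), Mybpc1 (414 bp, median 1142.5 bp) and Mybpc2 (371 bp, median 1058 bp) were further below. The part of CpG content in these widths was not tested.

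For Neb, Actn3 and Myom2 the direction of the gene was not at hand, so both gene ends were looked at. Each of the 9 genes had an interval within 1 kb of at least 1 end, as had 74.7% of 21887 protein-coding genes. The intervals at Neb and Myom2 were small. Neb had a single one, of 188 bp, 419 bp beyond its upper end (52339217 to 52339404), and none at the lower end. Myom2 had a single one, of 154 bp, 558 bp beyond its lower end (15056942 to 15057095). Actn3 differed, with an interval of 1437 bp from 4877848 to 4879284 that covered its upper end and also the start of Zdhhc24, which lies 759 bp away. That interval cannot be given to Actn3 alone.

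Starts of most protein-coding neighbours in the same loci had wider intervals. Of 11 protein-coding neighbours whose start lay within 20 kb of a member's body, 8 had an interval within 1 kb of the start (71.6% of all genes). Their intervals measured 920 to 1437 bp, each wider than every start interval of the 6 sarcomere genes. The interval of 1437 bp, at Zdhhc24, is the one that also covered the upper end of Actn3. Mtr, which encodes methionine synthase, had 1379 bp near Actn2, and Chpt1, a gene of phosphatidylcholine synthesis, had 1197 bp near Mybpc1. Myl12a and Myl12b, which encode regulatory light chains of nonmuscle myosin, had 1380 and 1341 bp beside Myom1. Emc10 and Fam71e1 shared an interval of 1086 bp beside Mybpc2, and Ctsf, a cathepsin gene, had 920 bp beside Actn3. Spib, a lymphoid transcription factor gene 1280 bp from Mybpc2, had none at its start, nor had Opn4, which encodes melanopsin, and 9230112D13Rik beside Ldb3. Among long noncoding RNA genes with a start in a locus, 5430431A17Rik near Mybpc2 had 552 bp, narrower than at Actn2, Ttn and Ldb3. Gm52510 and 4930573O16Rik, both at Neb, had none. Of the 71 flank intervals, 29 overlapped a neighbouring protein-coding gene. Within 1 kb of an end of such a gene lay 11, or 14 when all annotated genes were counted. The share over the flanks of all genes was not computed.

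**Figure D1:**
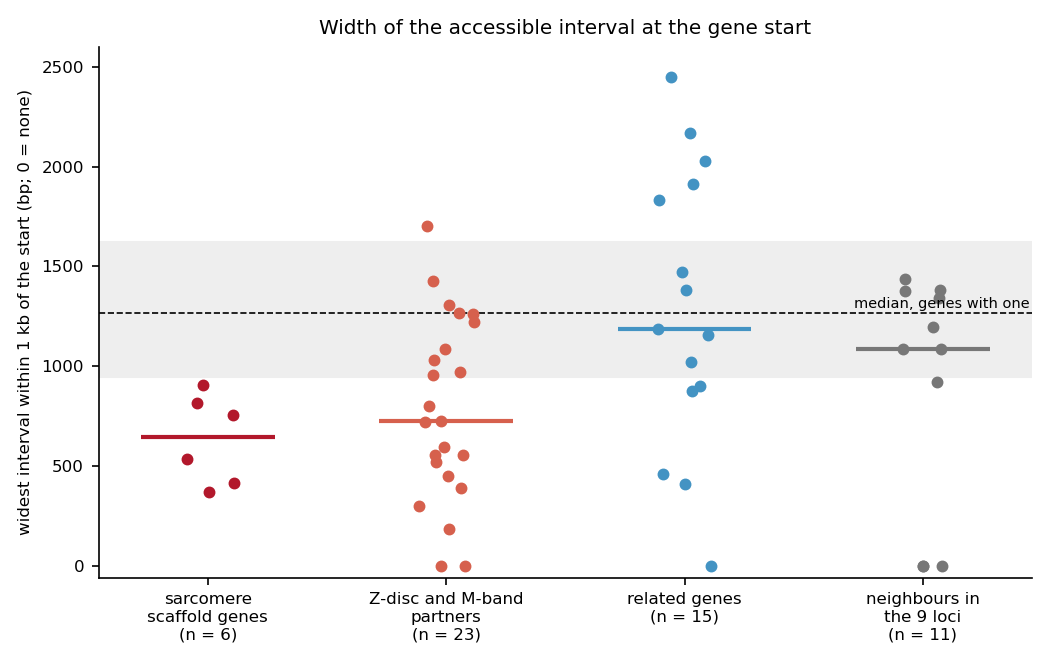
The y axis gives the widest interval within 1 kb of the gene start in bp, with 0 for none. Points are the 6 sarcomere scaffold genes with a known start, the 23 partners, the 15 related genes and the 11 protein-coding neighbours, thick bars are medians that count genes without such an interval as 0, and the grey band and dashed line are the quartiles (946 and 1622 bp) and median (1268 bp) over all protein-coding genes with such an interval. The 6 sarcomere genes lie between 371 and 907 bp, below the band.

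Along the gene bodies, all 9 genes held intervals, as did 79.1% of protein-coding genes. The median of the 9 genes was 18.5 intervals per 100 kb of gene body, against 18.6 over 21887 protein-coding genes (quartiles 6.21 and 29.8). The 9 values ran from 8.05 to 31.6, and 4 of the 9 lay above that median. Without the 3 intervals that also overlap another protein-coding gene, 1 in Actn3 and 2 in Mybpc2, the median was 14.0 and 2 of the 9 lay above 18.6, with the value over all genes left as it was. By the share of the gene body under an interval the 9 genes were lower, with a median of 4.76% against 8.72% (quartiles 2.33 and 15.0%). The median width of the intervals was 283.5 bp over the 9 gene bodies and 350 bp over those of all protein-coding genes, and 24 of the 144 (16.7%) measured at least 600 bp, against 28.1%. Below, the density of each gene is set beside the protein-coding genes of 0.5 to 2 times its length.

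**Figure D2:**
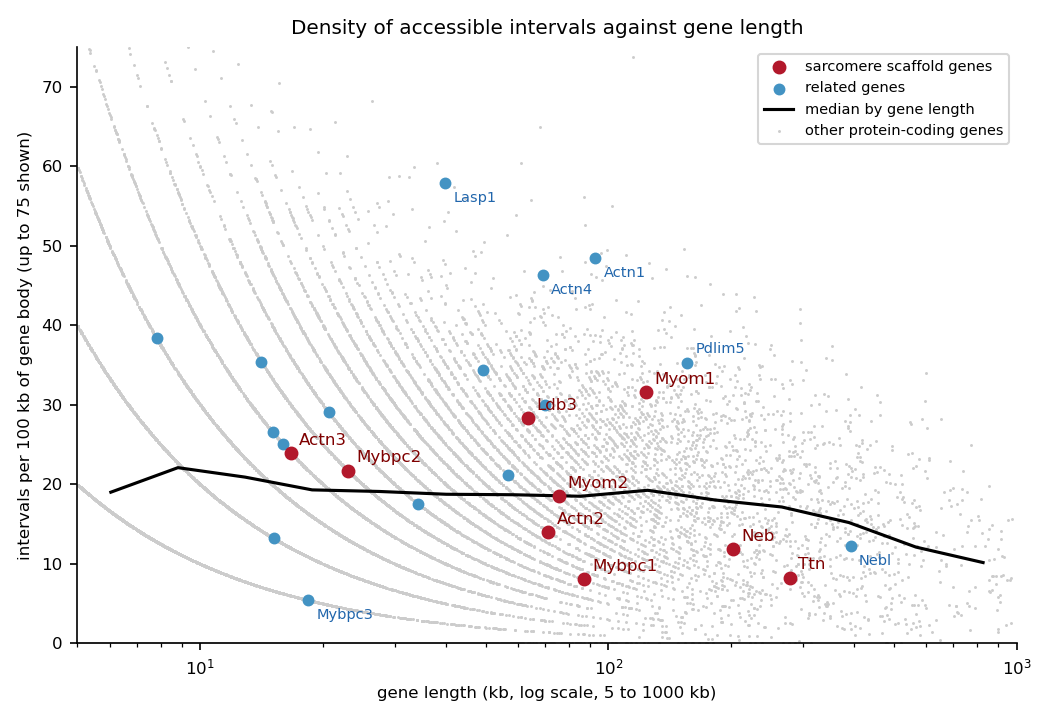
The x axis gives gene length in kb on a log scale and the y axis gives intervals per 100 kb of gene body. Red points are the 9 sarcomere scaffold genes, blue points the 16 related genes, grey points other protein-coding genes, and the black line is their median by length. Myom1 and Ldb3 lie above the line, Ttn, Neb, Mybpc1 and Actn2 below it, and Actn1, Actn4 and Lasp1 far above it.

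Titin held fewer intervals than most genes of its length. Ttn (chromosome 2, 76703980 to 76982557, gene ID 22138) spans 278.6 kb and held 23 intervals, or 8.26 per 100 kb. The median over 1403 genes of like length was 17.0, and 80.7% of them had a higher density. Intervals covered 2.20% of Ttn, against a median of 7.24%, and 88.0% of genes of like length were covered more. The sites gathered toward the ends of the gene, with 11 of the 23 within 60 kb of the start and 6 of these within 15 kb. Counted from the start, 5 equal parts of Ttn held 11, 0, 2, 4 and 6 intervals. A pair of stretches without any interval, of 59.7 kb (76867321 to 76927022) and 58.7 kb (76807350 to 76866037), filled the middle, with intervals of 293 and 130 bp between them at 115.4 and 116.4 kb from the start. The widest interval of the locus, 949 bp from 76805600 to 76806548, lay 176.5 kb into the gene, at 63.4% of its length. Next in width were the interval at the start (816 bp) and one of 704 bp in the flank, inside the neighbouring gene Plekha3.

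Nebulin had a similar count over a shorter gene. Neb (chromosome 2, 52136640 to 52338798, gene ID 17996) spans 202.2 kb and held 24 intervals, or 11.9 per 100 kb, against a median of 18.3 over 2052 genes of like length, of which 72.6% were higher. The intervals lay mostly toward the upper end. Counted from the lower end, 5 equal parts of the gene held 2, 5, 5, 8 and 4 intervals. The widest interval over any of the 9 gene bodies was in Neb, with 1515 bp from 52272085 to 52273599, at 67.4% of the length from the lower end. It was followed by 751 bp (52318985 to 52319735) and 607 bp (52286265 to 52286871). Intervals at 52295925 to 52296328 and 52303541 to 52303660 also overlap 4930573O16Rik, a long noncoding RNA gene inside Neb. They cannot be given to Neb alone. The first 21.0 kb from the lower end held no interval, and the longest stretch without one was 22.0 kb (52189494 to 52211529), 10.9% of the gene.

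The 2 genes of myosin-binding protein C differed from each other. Mybpc1, named for the isoform of slow skeletal fibres, lies on chromosome 10 from 88518279 to 88605229 (gene ID 109272) and held 7 intervals in 87.0 kb. Its 8.05 intervals per 100 kb were the lowest density of the 9 genes, below 85.5% of 4382 genes of like length (median 18.7), and 1.81% of it was covered. Of these 7 intervals, 5 lay within 15 kb of the start, and the 37.3 kb at the far end of the gene (42.8% of its length) held none. The 20 kb upstream of Mybpc1 held a run of 5 narrow intervals of 118 to 233 bp within 1999 bp, from 88620939 to 88622937, the nearest 15.7 kb from the gene.

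Mybpc2, the fast skeletal isoform gene, lies on chromosome 7 from 44501699 to 44524715 (gene ID 233199) and held 5 intervals in 23.0 kb, or 21.7 per 100 kb. The median over 7898 genes of like length was 19.5. Of its 5 intervals, 3 lay within 5.08 kb of the start, among them one of 605 bp (44521664 to 44522268) at 2.70 kb. The next 15.0 kb held none. The remaining intervals lay at the far end, where the gene overlaps Fam71e1, so they cannot be given to Mybpc2 alone.

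Alpha-actinin 2, the Z-disc crosslinker of heart and skeletal muscle, had a site at the start of its gene and most others in the middle. Counted from the start, 5 equal parts of Actn2 held 1, 0, 3, 5 and 1 intervals. Actn2 (chromosome 13, 12269426 to 12340732, gene ID 11472) held 10 intervals in 71.3 kb, or 14.0 per 100 kb, against a median of 18.7 over 5030 genes of like length. After the interval at the start, 27.7 kb (12312472 to 12340220, 38.9% of the gene) held none. A group of 3 followed at 28.6 to 33.2 kb, with 604 bp from 12311868 to 12312471 as its widest, and a group of 4 at 43.9 to 47.6 kb. In the group of 3, this interval and that from 12311267 to 12311636 also overlap Gm40667, a long noncoding RNA gene inside Actn2. They cannot be given to Actn2 alone. Beyond the far end, a flank interval of 622 bp (12264641 to 12265262) lay 4164 bp from the gene.

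Actn3, whose product is found in fast fibres, is the shortest of the 9 genes (chromosome 19, 4861216 to 4877909, gene ID 11474). It held 4 intervals in 16.7 kb, or 24.0 per 100 kb, against a median of 20.0 over 7848 genes of like length. Apart from the interval shared with Zdhhc24, these were 743 bp (4864865 to 4865607), 179 bp (4867966 to 4868144) and 391 bp (4876207 to 4876597). With 298 bp to Ctsf on one side and 759 bp to Zdhhc24 on the other, 6 of the 9 flank intervals of Actn3 overlapped another gene.

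Of the M-band genes, Myom1 was the densest of the 9 genes and Myom2 stood near the median. Myom1, which encodes myomesin 1, lies on chromosome 17 from 71003332 to 71126856 (gene ID 17929) and held 39 intervals in 123.5 kb, or 31.6 per 100 kb. Of 3320 genes of like length (median 18.6), 10.8% had a higher density. Intervals covered 12.6% of Myom1, each of 10 equal parts of the gene held at least 1, and the longest stretch without one was 10.4 kb (8.44% of the gene), shorter than in 90.5% of genes of like length. The start in the promoter table lies 16225 bp inside the annotated gene, and 7 of the 39 intervals lay before it. In the gene, 4 intervals of over 1000 bp stood at 20.7, 70.2, 83.3 and 101.8 kb from the start, and the first of them, from 71039665 to 71040756, measured 1092 bp. Of the 39 intervals, 16 were under 200 bp, against 27.5% of those over all protein-coding genes, and they lay both before and between these 4.

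Myom2, which encodes the related M-protein, lies on chromosome 8 from 15057653 to 15133420 (gene ID 17930) and held 14 intervals in 75.8 kb, or 18.5 per 100 kb, at the median of 18.7 over 4843 genes of like length. Its intervals were the narrowest, with a median of 140.5 bp and 8 of 14 under 200 bp (27.5% over all protein-coding genes). The widest, 841 bp from 15072465 to 15073305, closed a run of 4 in 2446 bp, about 15.2 kb from the lower end. A stretch of 26.6 kb without an interval (15073306 to 15099898) followed it. Of the 14 intervals, 7 had their midpoint in the lowest 20% of the gene.

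Ldb3, which encodes the Z-disc PDZ-LIM protein also called ZASP or Cypher, had the highest cover of the 9 genes. Ldb3 (chromosome 14, 34526699 to 34590314, gene ID 24131) held 18 intervals in 63.6 kb, or 28.3 per 100 kb, and 19.7% of 5379 genes of like length had more. Intervals covered 13.3% of Ldb3, against a median of 8.35%. Each of 10 equal parts of the gene held at least 1, as in Myom1, and no stretch without an interval exceeded 8.3 kb. The widest intervals lay inside the gene and not at its start, with 1380 bp from 34569370 to 34570749 at 18.5 kb and 1360 bp from 34548373 to 34549732 at 39.6 kb. Upstream, an interval of 1272 bp (34595588 to 34596859) lay 5274 bp beyond the gene, inside Opn4, whose own start held none.

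**Figure D3:**
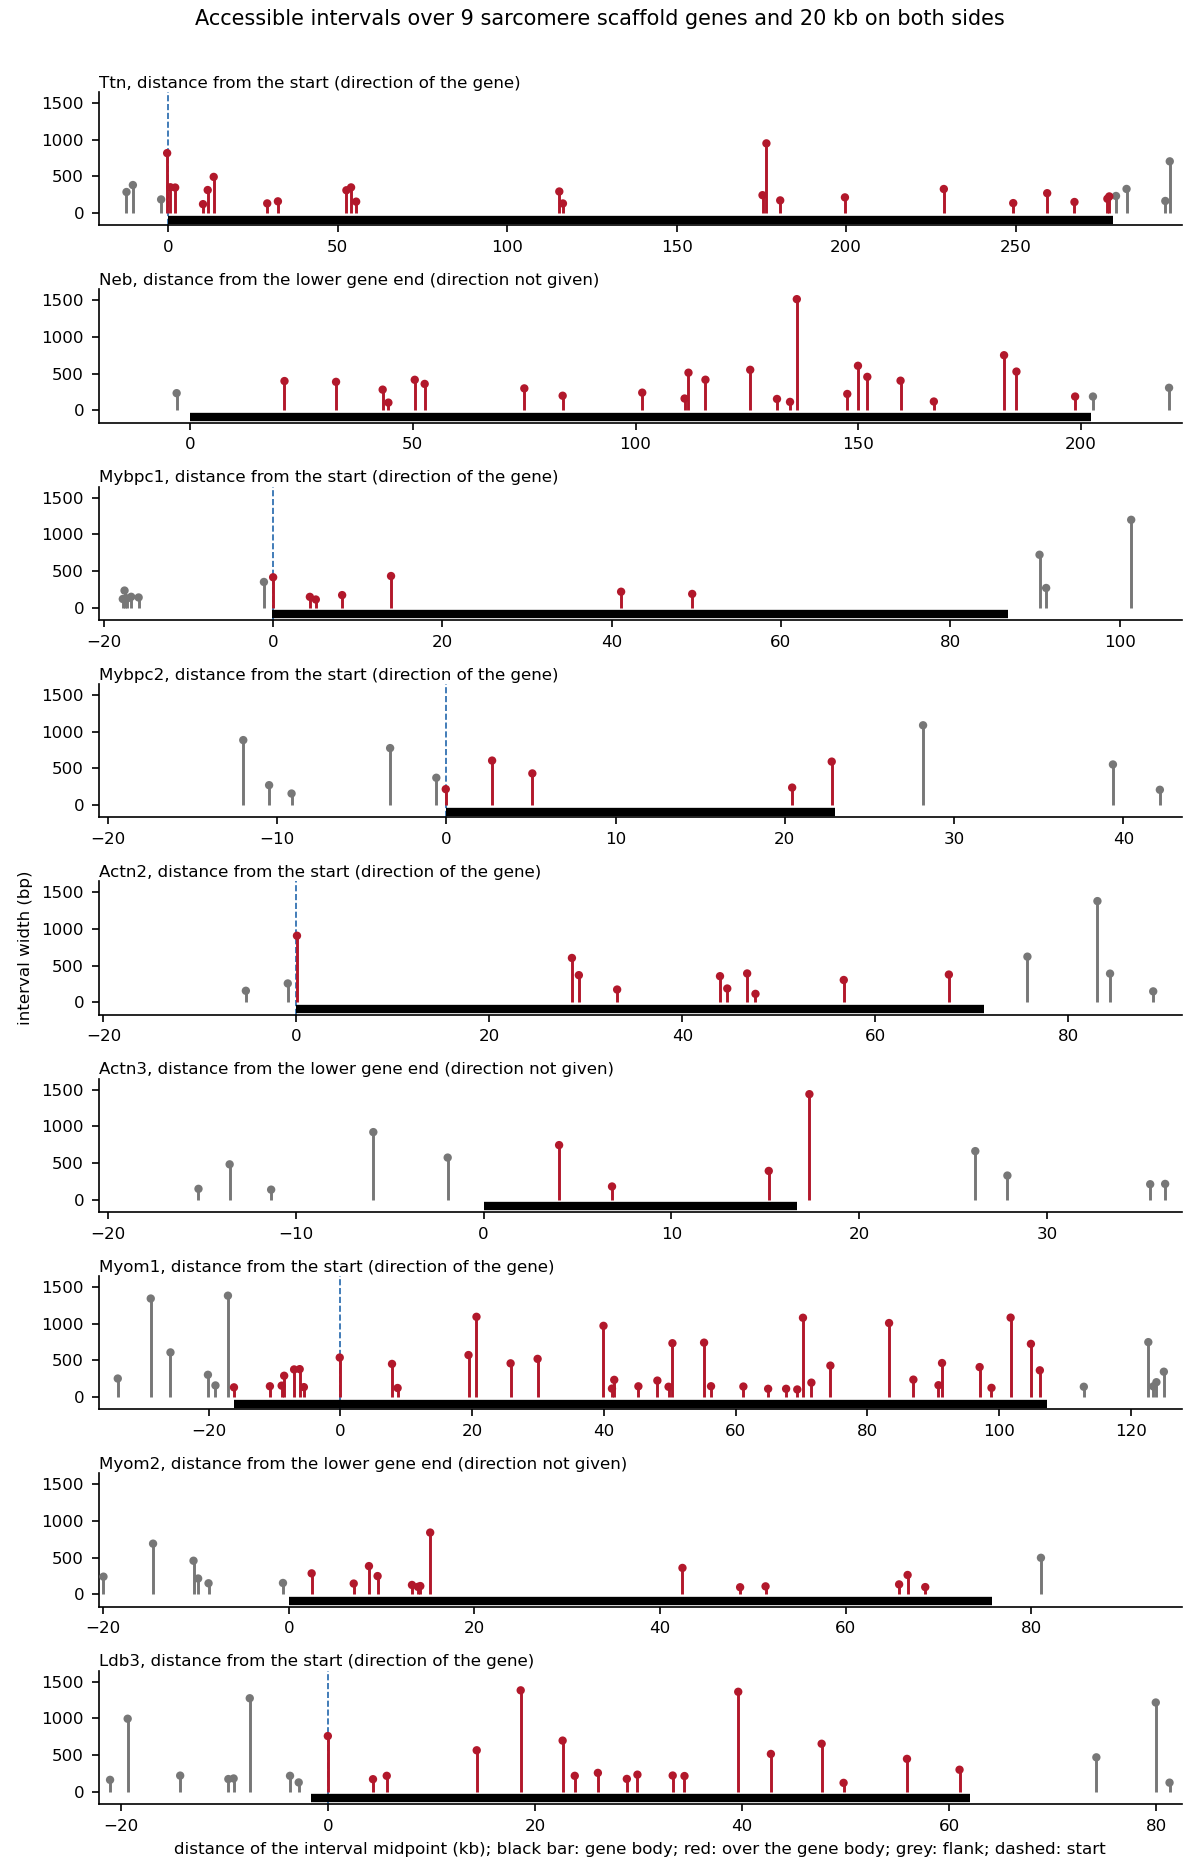
Each panel gives the intervals of a gene and its 20 kb flanks, with the distance of the interval midpoint in kb on the x axis and its width in bp on the y axis. Distances run from the start in the direction of the gene (dashed line) or, for Neb, Actn3 and Myom2, from the lower gene end. Red marks intervals over the gene body (black bar) and grey those in the flanks. Myom1 and Ldb3 are filled along their length, while Ttn, Mybpc1, Actn2 and Myom2 show long empty stretches of 59.7, 37.3, 27.7 and 26.6 kb. As a percent of gene length, 22.9, 17.7, 26.1 and 29.7% of genes of like length had a longer one. By this measure 5 of the 9 genes were above the median of genes of like length.

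Several relatives of the 9 genes had more intervals per length, the nonmuscle alpha-actinins among them. Among alpha-actinins, Actn2 and Actn3 had 14.0 and 24.0 intervals per 100 kb, against 48.5 in Actn1 and 46.3 in Actn4, which encode the nonmuscle alpha-actinins. Of genes of like length, 0.432% exceeded Actn1 and 0.776% exceeded Actn4. At the start the widest interval measured 907 bp at Actn2, against 2452 bp at Actn1 and 874 bp at Actn4. In the nebulin family, Neb had 11.9 intervals per 100 kb, against 12.2 in Nebl, which encodes nebulette, 30.0 in Nrap and 57.8 in Lasp1, which encodes a short actin-binding member made in many cell types. Ttn (8.26) was below Obsl1 (29.0), whose product binds titin. Myom1 and Myom2 (31.6 and 18.5) stood on either side of Myom3 (21.1).

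In the family of myosin-binding protein C, Mybpc1 and Mybpc2 (8.05 and 21.7 intervals per 100 kb) were set beside Mybpc3 (5.43), Mybph (38.4) and Mybphl (13.2). Mybpc3, the cardiac isoform gene, had 1 interval over its body and none within 1 kb of its start or of either end. It was the only related gene with a known start that had none there. Ldb3 (28.3) fell within the range of its PDZ-LIM relatives, from 17.6 in Pdlim3 to 35.4 in Pdlim4, with Pdlim1 at 34.4, Pdlim5 at 35.2, Pdlim2 at 26.6 and Pdlim7 at 25.0. At the start, Ldb3 had 757 bp, against 1154 to 2170 bp at the 5 of these PDZ-LIM genes with a known start.

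**Figure D4:**
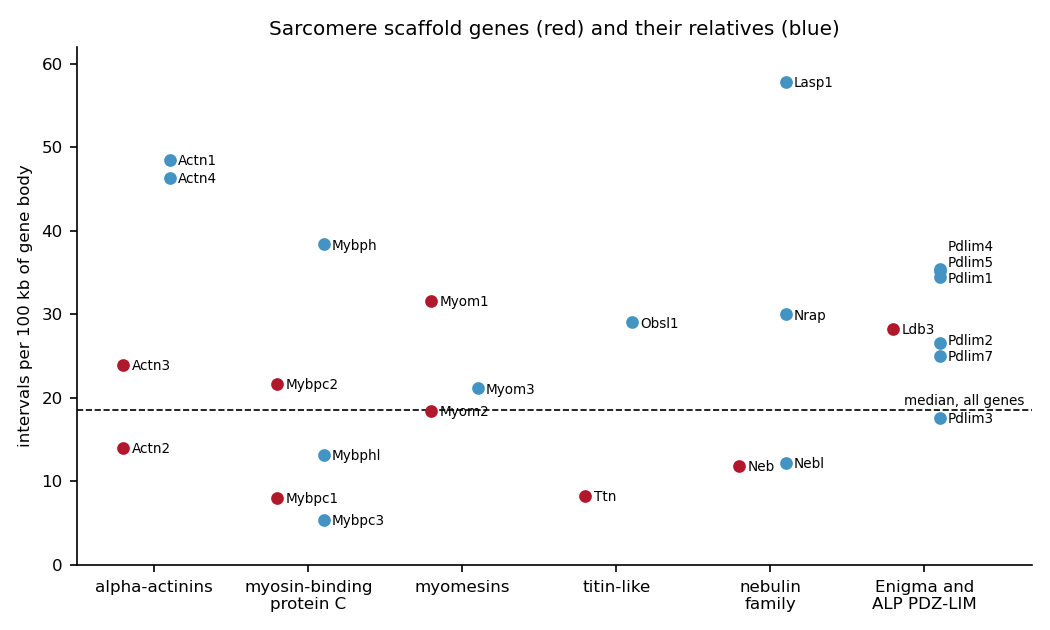
The y axis gives intervals per 100 kb of gene body for the sarcomere scaffold genes (red) and their relatives (blue) by protein family, and the dashed line is the median over all protein-coding genes (18.6). Actn1 and Actn4 lie above Actn2 and Actn3, Ttn lies below Obsl1, and Neb and Ldb3 lie close to at least 1 relative.

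As lists, the 9 genes had a lower median density than their relatives and partners. Of the 9 genes 4 lay above the median of genes of like length, against 12 of 16 relatives and 24 of 31 partners of the Z-disc, M-band and titin springs. Of the 4, Actn3 and Mybpc2 were above it only with intervals that overlap another protein-coding gene. Without these, Actn3 had 18.0 intervals per 100 kb (median of like length 20.0) and Mybpc2 had 13.0 (19.5), which left 2 of the 9 above; the relatives and partners were not recomputed this way. The median densities of the 9 genes, the relatives and the partners were 18.5, 29.5 and 27.6 intervals per 100 kb. With a known start, 6 of 6 of the scaffold genes, 14 of 15 relatives and 21 of 23 partners had an interval there (71.6% of all genes), and 3, 12 and 13 of these measured at least 600 bp. Median widths were 647, 1283 and 798 bp over the genes with a start interval. The partners with the highest density were short genes, namely Tcap (87.5, a single interval in 1.14 kb), which encodes telethonin, Klhl41 (49.6), Ankrd23 (47.1) and the chaperone gene Cryab (46.8). Smpx and Lmod2 had no interval within 1 kb of their start. No test between these lists was made, since the table has no replicate values.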

How the data were processed

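Per the labels, 6 ATAC-seq libraries of 3 groups were made. BWA, MACS2, DESeq2 and GRCm38.p6 appear in the submitters' processing notes, with no version or role. HOMER annotatePeaks was run by the authors on consensus peaks with GENCODE vM23, per the file headers. The sources used here do not say how peaks were called, filtered and joined. The deposited table gives interval start and end, 1-based. The deposited peak score is 0 in every row and the annotation columns are empty, so neither was used.

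Gene bodies came from the RefSeq gene table and starts from the RefSeq promoter windows, both GRCm38.p6, for 21887 and 17492 protein-coding genes. Exons and introns were not analysed here. An overlap was at least 1 bp. Promoter motifs and CpG were counted in 300 bases. Overlap counting was tested on simulated data. Named genes followed a rule: the 9 genes, the relatives (1 gene of the list is not reported here), the 4 densest partners and those without a start interval, neighbours with a start in a locus, and per gene the widest intervals, those at the start and the longest stretch without one. Other values were chosen after they were seen, CpG counts, runs and comparisons of like length included. Members, lists and tests were chosen with earlier results of these data known, among them that sarcomere genes had narrow intervals at their ends. Alternatives covered flank, window, minimum width, midpoints and background. Python 3.11.15, numpy 2.4.6, pandas 2.3.3 and matplotlib 3.10.9 were used.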

Additional observations from a re-analysis of the deposited data

How the results depend on the processing

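The count of 215 intervals over the 9 loci stayed within 1.5 times with no flank (144), 10 kb (176) or 50 kb (314), and midpoints gave 215. It dropped to 100 with intervals of at least 300 bp and to 42 with at least 600 bp. For single genes, the count moved by more than 1.5 times in 30 alternatives and stayed within 1.5 times in 24. Without flanks, Mybpc1 went from 16 to 7 and Actn3 from 13 to 4. With flanks of 50 kb, Ldb3 went from 29 to 50. The median density of 18.5 per 100 kb became 18.0 by midpoints (16.7 over all genes) and 9.82 with at least 300 bp (10.8 over all genes). The number of the 9 genes above the median of all genes was 4, and it was 3 against genes with an interval only and 5 by midpoints. Without intervals that overlap another protein-coding gene, an alternative chosen after seeing the data, the median density was 14.0, and 2 in place of 4 were above the median of all genes and that of genes of like length. The median cover of 4.76% became 4.09% with at least 300 bp. All 6 genes with a known start kept an interval there at 500 bp, 2 kb and 5 kb (69.3%, 75.2% and 80.03% of all genes), and 3 had one of at least 600 bp. The median start width was 647 bp for the interval over the start and at 500 bp and 2 kb, alternatives chosen after seeing the data, as were the windows for the relatives (13 to 15 with a start interval, 14 at 1 kb). With each gene split into 10 equal parts, 60 parts held an interval, and 41 with at least 300 bp. No paired analysis was possible because no column holds values of a library. Depth is unknown, so a missing interval does not show closed chromatin.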
